A study of Mus musculus with 2 samples.

Results

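The transcripts described here are isoforms that a transcript assembler built from spleen RNA. They carry class code j in the deposited table of assembled long non-coding RNA (lncRNA). That code stands for sharing at least 1 splice junction with an annotated mouse gene while differing from it elsewhere. The isoforms are called junction-sharing here by that code alone. All 670 transcripts of that class were taken except 3 of AW112010 and Slpi, which left 667 isoforms of 555 gene names, out of 32012 transcripts in all (16840 assembled and 15172 annotated). RNA of spleen cells was measured in 1 library of CIA mice and 1 library of untreated healthy mice. CIA stands for collagen-induced arthritis, in which mice immunized with type II collagen develop inflamed joints. Both titles give day 40, whereas a treatment note dates the death of the CIA mice to 42 days after the first immunization. The sources used here do not give strain, sex, age or the number of mice behind each library. With 1 library a group, no difference has a replicate check and no test was possible, so every comparison sets 2 libraries side by side, not the conditions they stand for.

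Most multi-exon genes make several transcripts, because exons can be skipped, splice sites can shift, introns can be left in, and starts and ends can move. A splice junction is the point where the end of an upstream exon is joined to the start of a downstream exon after the intron is removed. Isoforms of 1 gene can therefore change their balance while the sum over the gene stays level. Transcripts that keep an intron often stay in the nucleus or are degraded. Genes of SR splicing factors are known to limit their own protein by splicing part of their RNA into forms that are degraded. Whether any isoform described here is such a form was not tested.

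By GENCODE type, 504 of the 667 isoforms belonged to protein-coding genes and 139 to noncoding genes, with 54 of lincRNA, 46 of antisense, 34 of processed transcript and 5 of bidirectional promoter lncRNA type. The others comprised 9 of immunoglobulin V genes, 1 of a T cell receptor V gene, 11 of pseudogenes and 3 of gene names that GENCODE M21 does not hold. Thus most of these isoforms, although deposited as lncRNA, were spliced from genes that encode proteins. The ordinary mRNAs of those genes were not analysed here, so only the isoform itself could be compared. An exon count of 2 was the most frequent, at 223 isoforms, followed by 201 with 3 and 109 with 4, up to 12. Lengths ran from 218 to 25022 bases with a median of 2530. An annotated transcript start was used by 244 isoforms, an annotated end by 211, both by 106 and neither by 315. Coordinates are those of GRCm38. The isoform reached beyond the annotated gene on its 5′ side in 70 cases and on its 3′ side in 119.

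An isoform of 2 exons has a single intron, whose length follows from its span and its spliced length. Of the 223 such isoforms, 95 had exactly 1 annotated intron of that length within their span, 126 had none, and 2 belonged to genes that GENCODE M21 does not hold. For those 126 the only intron matched no annotated intron of the named gene, so a shared junction was not seen. All 95 matched isoforms also ran unspliced through at least 1 other annotated intron of the gene, only on the 5′ side of the junction in 47, only on the 3′ side in 38 and on both sides in 10. The stretch of annotated intron kept in the isoform had a median of 936 bases, or 33.2% of the isoform, and ranged from 1.61% to 87.0%. It made up over 50% of the isoform in 33. Bases were counted as intron where at least 1 annotated transcript has an intron. Exons of other annotated transcripts were not subtracted, so these values are upper limits. Class code j requires a difference from the annotated form, so a difference of this kind is part of how the isoforms were chosen.

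The junctions that carry the isoforms discussed further on are printed as the join itself, read from GENCODE M21 transcripts 5′ to 3′ on the strand of the gene. The last 15 bases of the upstream exon are in lower case and the next 15 bases, in capitals, are the start of the downstream exon.
Serp1: ttgtctgtggctctgCAATTTTCCAGATTA
Rps3a1: aacccaagtttgaatTGGGCAAGCTCATGG
Rpl41: gaagagaatgcgcagGCTGAAGCGCAAGAG
Cxcl12: tctgcatcagtgacgGTAAACCAGTCAGCC
Zfas1: tgatcttgatttcagGTACTTTTGGAATAC
Srsf2: cgtgtattggagcagATGAATCGGCAAGCG
Senp7: gagagctttttccagGCTTGAAGAACTACT
Megf11: agccacactcaccagGCACTTGTGGAATGG
Vgll4: ggagaccacccagtgCAACTGCCACCTGTG
Gm39469: cgaagttgagacatgGATGCAGTAACCTAT
Gm27252: aggatatttcctgagGTCATGGAAACTGGA

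The Serp1 junction spans the intron chr3:58523869-58525082 on the minus strand, and 9.80% of its isoform was kept intron of other positions. That of Rps3a1 spans chr3:86138111-86138482 on the minus strand, with 32.0% kept intron. The Rpl41 intron lies at chr10:128548430-128548657 on the minus strand, and kept intron made up 58.3% of the isoform. For Cxcl12, which encodes the chemokine that retains blood cells in their niches, the intron is chr6:117168717-117171481 on the plus strand and 68.8% of the isoform was kept intron. The largest portion in this group, 82.0%, belonged to Zfas1, whose junction spans chr2:167065481-167065686 on the plus strand. Srsf2 (chr11:116850962-116851647, minus strand) had 52.1%, Megf11 (chr9:64697909-64700096, plus strand) 57.0%, Vgll4 (chr6:114862437-114862755, minus strand) 33.2% and Senp7 (chr16:56186210-56187469, plus strand) 27.2%. The introns of Gm39469 and Gm27252 are chr9:124271497-124282074 on the minus strand and chr7:63898606-63899300 on the plus strand.

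Levels are given as FPKM, fragments per kilobase of transcript per 1000000 fragments, so they can be compared between isoforms of different length. Of the 667 isoforms, 653 reached 0.5 FPKM in at least 1 library and 14 did not. Ratios are given as log2((CIA FPKM + 0.1)/(healthy FPKM + 0.1)), where a value above 0 means a higher level in the CIA library. For brevity, levels in the CIA and the healthy library are written as in CIA and in healthy, and pairs joined by against give CIA before healthy. By a size rule of 2-fold, 123 of the 653 (18.8%) were higher in the CIA library and 88 (13.5%) were lower, while 442 lay within 2-fold. The background over all 16773 assembled transcripts past the same limit was 17.2% higher and 11.1% lower, and over 3068 annotated transcripts it was 15.7% higher and 6.13% lower. The share of higher isoforms was thus near the background. The share of lower isoforms exceeded that of the annotated transcripts and was closer to that of the other assembled ones. In bulk RNA of this kind, fewer cells of a type and less RNA per cell cannot be told apart.

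The median log2 ratio of the 653 isoforms was 0.21 (quartiles -0.39 and 0.70), against 0.26 for all assembled and 0.30 for all annotated transcripts. Subtracting the annotated median of 0.30 left 97 isoforms higher and 114 lower and moved the median to -0.09, so that the part of 2-fold isoforms that was higher went from 58.3% to 46.0%. The direction of this split therefore flipped with the scaling. The number beyond 2-fold in either direction was 211 with either scaling. Before centring this was 32.3% of these isoforms, against 22.2% of 1750 other assembled transcripts with 2 or more exons and 26.7% of annotated transcripts with 2 or more exons. Summed over all 667 isoforms, the level was 2778 FPKM in CIA and 2815 FPKM in healthy.

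**Figure D1:**
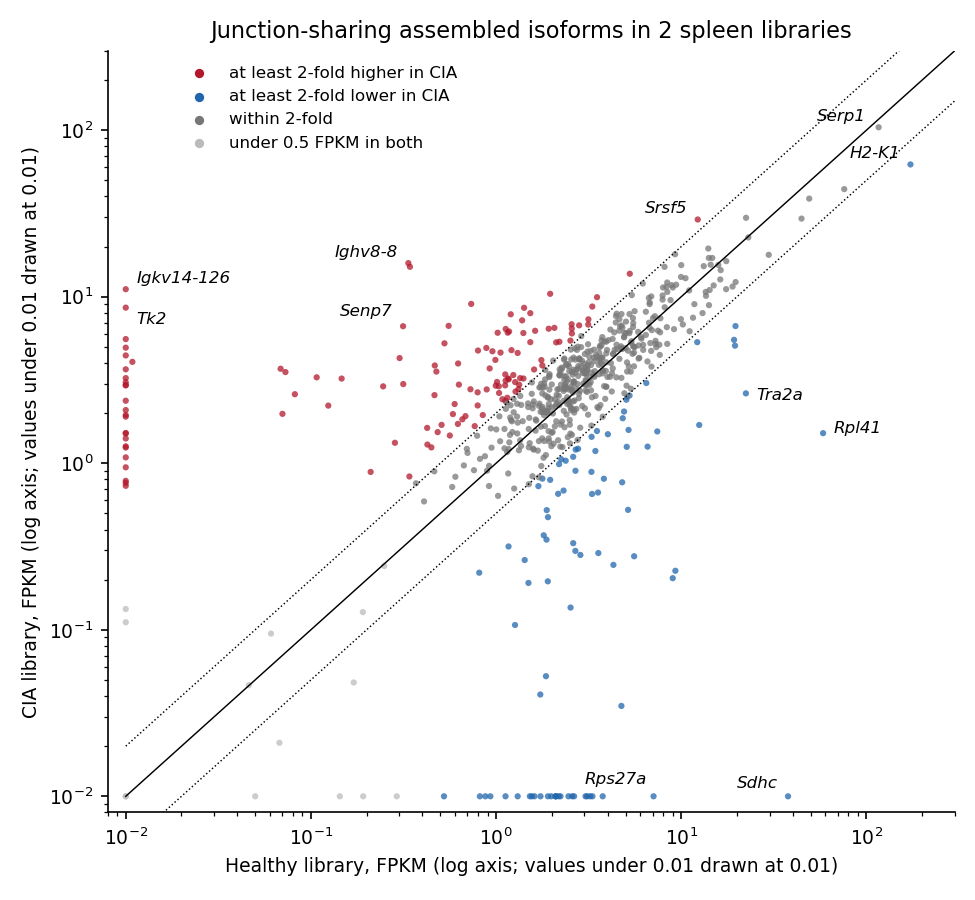
Each point is 1 junction-sharing isoform, with its FPKM in the healthy library on the x axis and in the CIA library on the y axis (both log axes, values under 0.01 drawn at 0.01). Of the isoforms past 0.5 FPKM, 123 lie at least 2-fold above the line of equal levels (red), 88 at least 2-fold below (blue) and 442 between (dark grey), with dotted lines at 2-fold. Pale grey points stay under 0.5 FPKM in both.

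These counts differed with abundance. Below 1 FPKM on average, 17 isoforms were 2-fold higher and 19 lower of 52, and between 1 and 2 FPKM it was 40 and 36 of 163. Between 2 and 5 FPKM the counts were 57 higher and 24 lower of 308 (18.5% and 7.79%), against 8.88% and 2.87% of all assembled transcripts. From 5 to 10 FPKM they were 8 and 2 of 86 (9.30% and 2.33%), near the background of 8.99% and 1.33%. Among the 44 isoforms averaging 10 FPKM or more the order turned, with 1 higher and 7 lower and a median log2 ratio of -0.26, whereas all assembled transcripts of that abundance had 53 higher and 28 lower of 438 and a median of 0.30. Of the 35 isoforms of up to 500 bases, 24 (68.6%) lay beyond 2-fold, 11 higher and 13 lower. The same share over all assembled transcripts of that length was not taken. Fragment counts behind FPKM are unknown here, so counting error could not be separated from these differences.

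**Figure D2:**
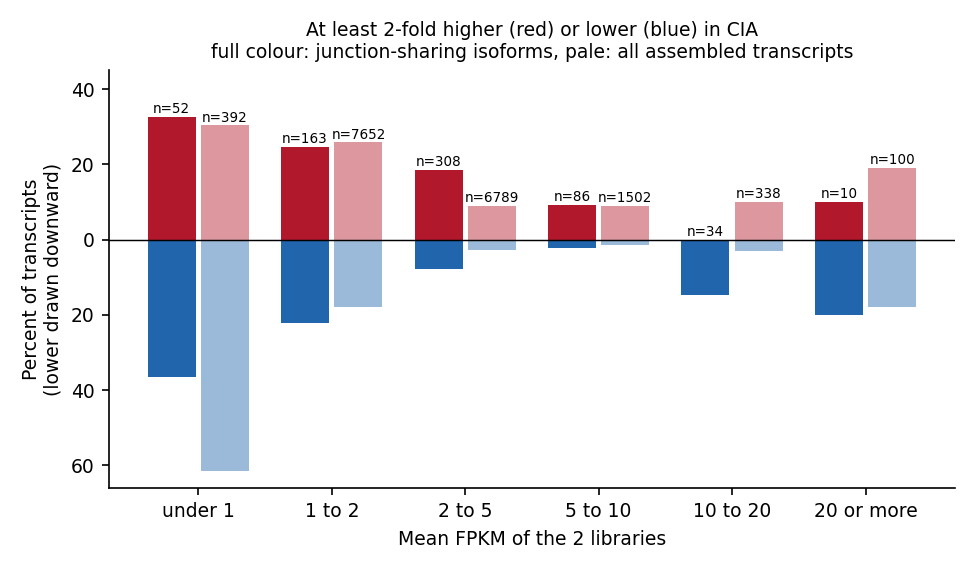
Bars give the percent of isoforms at least 2-fold higher (up, red) or lower (down, blue) in the CIA library by mean FPKM of the 2 libraries, with the number of transcripts above each bar. Full colours are junction-sharing isoforms and pale colours all assembled transcripts. From 10 to 20 FPKM none of 34 isoforms was 2-fold higher and 5 were lower.

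The most abundant isoforms came from genes of protein synthesis and antigen presentation, among others. Serp1, an endoplasmic reticulum stress protein gene, had the highest level apart from H2-K1, at 104 FPKM in CIA and 116 FPKM in healthy, a log2 ratio of -0.16. H2-K1, a class I antigen presentation molecule, stood at 62.3 FPKM in CIA against 173.0 in healthy, a log2 ratio of -1.47. Its isoform has 3 exons (chr17:33996106-33998356, minus strand). Of the 10 most abundant isoforms, H2-K1 and Rpl41 were 2-fold lower and an isoform of Srsf5 was 2-fold higher. Class I genes have near-identical copies, so reads of H2-K1 may have been shared with them.

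Among isoforms of ribosomal protein genes, 2 abundant ones lay within 2-fold. Rpl7a, of the large subunit, was at 44.3 against 75.9 FPKM (log2 ratio -0.78), and Rps3a1, of the small subunit, at 38.8 against 49.1 FPKM (-0.34). The Rpl41 isoform lay beyond it. It stood at 1.52 FPKM in CIA and 58.3 FPKM in healthy, a log2 ratio of -5.18. That is the lowest among isoforms above the floor of the table in both libraries with the pseudocount of 0.1 FPKM, but not with one of 0.01 FPKM. There Tec (-7.72), Dynlt1c (-7.67), Gm32401 (-7.58), Cenpx (-6.73), 5430401H09Rik (-5.39) and Dnaja3 (-5.30) had isoforms below Rpl41 (-5.26). Rpl41 encodes a very small protein of the large subunit, and its isoform joined the junction shown above to a kept neighbouring intron. Ribosomal protein genes have many processed copies in the genome, which makes the assignment of their reads uncertain.

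Cyb5a, a cytochrome of lipid metabolism, was at 17.9 against 29.7 FPKM (-0.73). Btla, an inhibitory receptor gene of lymphocytes, went the other way with 29.8 against 22.4 FPKM (0.41), and Eif4a2, an RNA helicase gene of translation initiation, was nearly level at 22.7 against 23.03 FPKM (-0.02). Cxcl12 was level too, at 15.5 FPKM in CIA and 15.9 FPKM in healthy.

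Marker genes fixed for T cells, B cells, myeloid cells, platelets, plasma cells and stroma had no row among these isoforms or the annotated transcripts, so the labelled tissue could not be checked on them. The part of cell composition in the results was not tested.

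Isoforms of the highest ratio came from coding genes of varied function, from noncoding genes and from an immunoglobulin V gene. Morf4l1 encodes a chromodomain protein of histone acetylation complexes, and its isoform of 5 exons (chr9:90096983-90110422, minus strand) stood at 4.06 FPKM in CIA and 0.0109 FPKM in healthy, a log2 ratio of 5.23. A different Morf4l1 isoform of 3 exons was at 6.02 against 2.57 FPKM (1.198), which made Morf4l1 the 1 gene of several isoforms with all of them 2-fold higher. Rnase6, a secreted antimicrobial ribonuclease gene, was at 3.06 FPKM against 3.6e-05 FPKM (4.98). That healthy value lies below the floor of the table, so the size of the ratio depends on the pseudocount. The log2 ratio of Rnase6 was 8.26 with a pseudocount of 0.01 FPKM and 2.02 with 1 FPKM.

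The Cklf isoform of 4101 bases, from the gene of a chemokine-like factor, was at 3.53 against 0.0728 FPKM (4.39). A shorter Cklf isoform with 3 exons as well was at 6.61 against 4.67 FPKM (0.49), so the 2 forms of this gene differed in the size of their ratio. Senp7 encodes a protease that trims SUMO chains, and its 2-exon isoform stood at 6.65 against 0.3145 FPKM (4.03). Megf11, a gene of a receptor with EGF-like repeats, had a 2-exon isoform of 10827 bases at 3.28 against 0.107 FPKM (4.03). Ssbp3, a cofactor gene of LIM domain transcription complexes, was at 2.60 against 0.0819 FPKM (3.89). The noncoding genes in this group were E230029C05Rik, at 3.69 against 0.0686 FPKM (4.49), and Gm12359, antisense by type, at 3.23 against 0.147 FPKM (3.75).

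A further pair came from Ighv8-8, an immunoglobulin heavy chain V gene. Its isoforms of 260 and 256 bases stood at 15.9 against 0.336 FPKM (5.20) and 15.1 against 0.342 FPKM (5.10), while another of 265 bases was at 11.5 against 18.9 FPKM (-0.71). The 3 isoforms shared their lower coordinate within 2 bases and their introns were 225363, 353968 and 273172 bases long, a distance that crosses other V genes, and none matched an annotated intron. V genes are close copies of each other that recombine in B cells, so these joins could not be assigned to a gene with certainty. Over all 9 isoforms of immunoglobulin V genes, 4 were 2-fold higher, the Ighv8-8 pair among them, and 1 was lower. Their median log2 ratio was nevertheless -0.42, or -0.72 after centring, with 5 of the 9 below 0.

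At the other end, Cenpx, a gene of the centromere and of DNA repair, had an isoform at 0.0349 FPKM in CIA and 4.75 FPKM in healthy (-5.17). A second Cenpx isoform was at 4.47 against 7.66 FPKM (-0.76). Dnaja3, a mitochondrial chaperone gene, was at 0.226 against 9.30 FPKM (-4.85). Dynlt1c, a dynein light chain gene with close copies next to it, was at 0.00302 against 2.64 FPKM (-4.73), whereas another Dynlt1c isoform was at 3.66 against 2.21 FPKM (0.71). Ppox encodes an enzyme of heme synthesis, and its isoform of 6 exons was at 0.276 against 5.57 FPKM (-3.91). Crispld2, a gene of a secreted protein that binds lipopolysaccharide, was at 0.0409 against 1.73 FPKM (-3.70) and Rnf24, a ubiquitin ligase gene, at 0.0526 against 1.86 FPKM (-3.68). Among isoforms of noncoding genes above the floor in both libraries, the lowest belonged to Gm32401 (0.00689 against 3.22 FPKM) and 5430401H09Rik (0.204 against 8.996 FPKM), with log2 ratios of -4.96 and -4.90.

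Some isoforms were listed at the floor value of 0.0001, read as 0, in 1 library only. This held for 27 isoforms in the CIA library and 23 in the healthy library, 7.496% of all 667, against 2.44% of 16170 other assembled transcripts. That background was not limited to transcripts with 2 or more exons. Of the 667 isoforms, 616 were above 0 in both and 1, of Zfp141, was at 0 in both. The 616 include Rnase6, whose healthy value lay below the floor value. The largest gap belonged to Sdhc, a gene of mitochondrial complex II, whose isoform (chr1:171129370-171150588, minus strand, 6 exons) was listed at 0 in CIA and at 37.7 FPKM in healthy. Rps27a, which encodes a ubiquitin and ribosomal fusion protein, was at 0 against 7.09 FPKM. St6galnac3, a sialyltransferase gene, was at 0 against 3.77 FPKM, 5031425E22Rik at 0 against 3.32 FPKM, and Mfsd2b, a lipid exporter gene of red cells and platelets, at 0 against 3.10 FPKM.

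In the reverse direction, Igkv14-126, an immunoglobulin light chain V gene, was listed at 11.1 FPKM in CIA and at 0 in the healthy library. Tk2, a mitochondrial thymidine kinase gene, was at 8.60 against 0 FPKM, and Skap1, an adaptor of T cell receptor signalling, at 5.57 against 0 FPKM. Gm2682 was at 4.95 against 0 FPKM and Minos1, a gene of the inner mitochondrial membrane, at 4.44 against 0 FPKM. No fold is given for these, since a value of 0 without counts has no known detection limit. Some of these genes had a further isoform that was present in both libraries. Mfsd2b had one of 11 exons at 8.90 against 14.1 FPKM (-0.66), and 5031425E22Rik one at 6.35 against 4.14 FPKM (0.60).

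Isoforms of coding and noncoding genes were counted apart. Of 493 isoforms of protein-coding genes, 82 were higher and 62 lower (29.2% beyond 2-fold) with a median log2 ratio of 0.15, and of 136 isoforms of noncoding genes 33 were higher and 22 lower (40.4%) with a median of 0.35. After the shift of 0.30 was subtracted these medians were -0.14 and 0.05. The antisense type had the highest median among types with over 10 isoforms: 14 of 44 isoforms were higher and 4 lower, with a median of 0.81, or 0.51 after centring. The differences between gene types were not tested. The sources used here do not give the strand setting of the libraries, so reads of an antisense gene and of its partner may not have been told apart. Isoforms of lincRNA genes had 13 higher and 10 lower of 54 (median 0.29, or -0.01 centred), and those of processed transcripts 5 higher and 6 lower of 33 (0.26, or -0.04 centred).

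Within the antisense type, Gm45552 had isoforms at 17.98 against 9.26 FPKM (0.95) and 9.93 against 3.51 FPKM (1.48), and Gm26740 had isoforms at 15.1 against 8.13 FPKM (0.89) and 4.595 against 1.31 FPKM (1.74). All 4 were higher in the CIA library. Among the lincRNA genes, Gm30211 stood at 13.7 against 5.27 FPKM (1.36), and Gm31452 at 0.136 against 2.52 FPKM (-3.48).

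For 88 genes, with 120 of the isoforms, the annotated table also listed lncRNA transcripts of the same gene name, so that a share could be formed: the FPKM of the assembled isoforms as a percent of assembled plus annotated FPKM. A share within a gene does not depend on the scaling between the libraries. Of these genes, 83 reached 1 FPKM in total in both libraries. The median share was 59.1% in the CIA and 56.4% in the healthy library, and in 41 of the 83 genes the assembled form made up over 50% in both. The share lay within 10 points between the libraries in 45 genes. It was at least 20 points higher in the CIA library in 14 genes (16.9%) and at least 20 points lower in 10 (12.05%). Among 367 genes with assembled transcripts of other classes, the background was 6.54% in each direction. Those other class codes do not stand for a shared splice junction, so these genes are not a like set. In 7 of the 83 genes the annotated transcripts were listed at 0 in both libraries, which fixes the share at its upper limit.

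**Figure D3:**
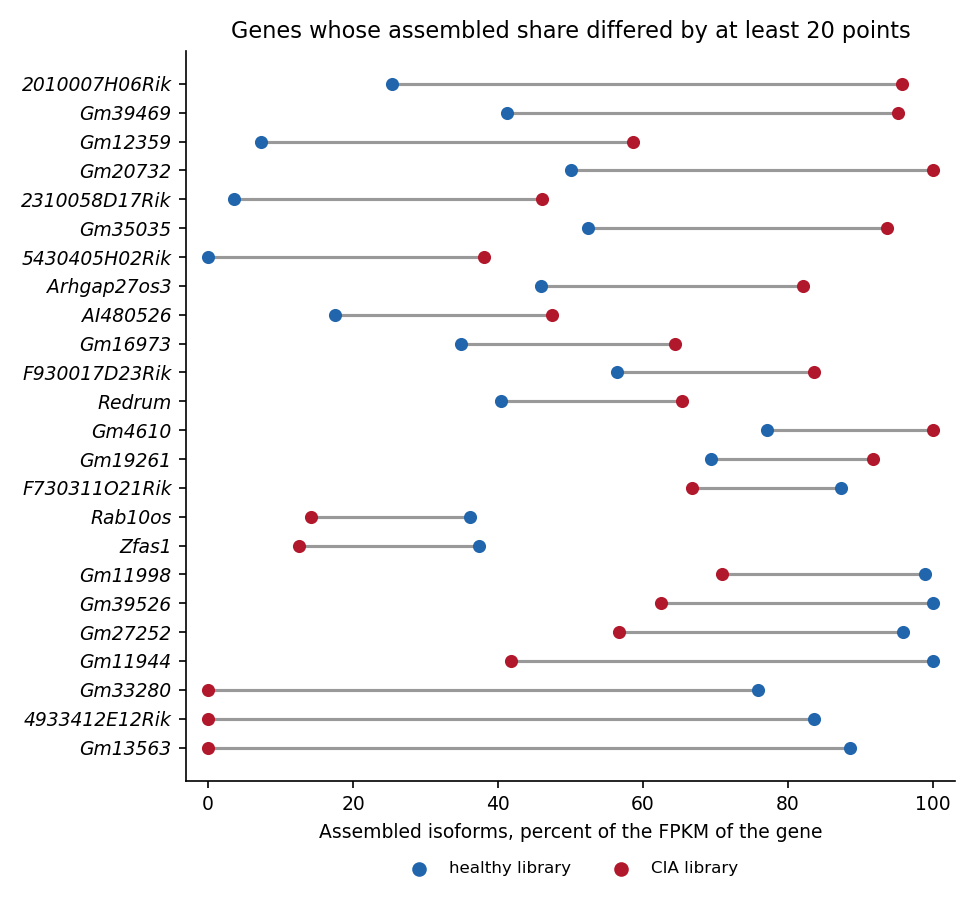
For each of the 24 genes whose assembled share differed by 20 points or more, the points give the assembled isoforms as percent of the FPKM of the gene in the healthy (blue) and the CIA library (red). Gm13563, 4933412E12Rik and Gm33280 are at 0 in the CIA library, and Gm20732 and Gm4610 are at 100.

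In these 24 genes the gene sum was within 2-fold in 19, 2-fold higher in the CIA library in 5 and 2-fold lower in none. The form that made up the larger part of the gene differed between the libraries in 10 of them. In Gm13563, an antisense gene, the assembled isoform was at 0 FPKM in CIA and 2.58 FPKM in healthy, while the annotated transcripts were at 2.43 and 0.335 FPKM. Its share therefore was 0% against 88.5%, at a log2 ratio of the gene sum of -0.25. In 4933412E12Rik, of the bidirectional promoter type, the assembled isoform was at 0 against 2.46 FPKM and the annotated ones at 2.10 against 0.481 FPKM, with shares of 0% and 83.6%. Gm33280 followed with 0 against 1.52 FPKM assembled and 2.88 against 0.483 FPKM annotated, a share of 0% against 75.9%. In all 3 the annotated form was the main one in the CIA library and the assembled form in the healthy library.

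In 5 of the other genes with a lower assembled share, the annotated form was the one further apart between the libraries. Gm11944 had an assembled isoform at 1.35 against 1.93 FPKM and an annotated transcript at 1.88 against 0.00129 FPKM, so that the share was 41.8% against 99.9%. For Gm27252, whose junction is shown above, the assembled isoform was nearly level at 6.04 against 5.04 FPKM (0.26), the annotated form was at 4.61 against 0.217 FPKM, and the share was 56.7% against 95.9%. F730311O21Rik had 12.2 against 8.40 FPKM assembled and 6.05 against 1.22 FPKM annotated. Gm39526 (62.5% against 100%) and Gm11998 (70.9% against 98.9%) were the other two. Rab10os (14.2% against 36.2%) and Zfas1 completed the genes with a lower share.

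Zfas1 is a host of small nucleolar RNAs (snoRNAs), which guide the modification of ribosomal RNA and are cut from introns. Its assembled isoform, with most of its length inside introns of at least 1 annotated transcript, was at 1.55 FPKM in CIA and 7.42 FPKM in healthy (-2.19). The 5 annotated Zfas1 transcripts summed to 10.8 against 12.5 FPKM (-0.20). The assembled share was 12.5% against 37.3%, so the lower sum of Zfas1 lay mainly in the assembled form.

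Among genes with a higher assembled share, 2010007H06Rik had the widest gap. Its isoform of 3 exons (chr9:51275384-51284872, plus strand) was at 2.56 FPKM in CIA and 0.465 FPKM in healthy, and its annotated transcripts at 0.113 and 1.37 FPKM. The share was 95.8% against 25.3%. Gm39469, whose junction is shown above, was at 2.96 against 1.33 FPKM assembled and 0.150 against 1.90 FPKM annotated, with shares of 95.2% and 41.3% and a level gene sum (-0.05). Gm20732 was at 4.78 against 1.21 FPKM assembled and 0 against 1.21 FPKM annotated, a share of 100% against 50.1%.

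Gm12359 differed in kind, since its annotated transcripts were nearly level at 2.27 against 1.88 FPKM and the assembled isoform alone was higher, so that the share was 58.7% against 7.24% and the gene sum was 2-fold higher (1.40). In 2310058D17Rik the same held, with 1.98 against 0.0702 FPKM assembled and 2.32 against 1.86 FPKM annotated, a share of 46.0% against 3.64%. The share of 5430405H02Rik was 38.1% against 0%, that of AI480526 47.4% against 17.5%, and that of F930017D23Rik, summed over 5 assembled isoforms, 83.6% against 56.4%. Redrum, an lncRNA described in erythroid cells, had a level assembled isoform (1.66 against 1.74 FPKM) and an annotated form at 0.880 against 2.57 FPKM, so its share was 65.3% against 40.4%.

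Assembled and annotated forms each differed by 2-fold or more, in opposite directions, in 8 of 74 genes with both forms past 0.5 FPKM (10.8%). The background among 252 genes with assembled transcripts of other classes was 1.59%, but those class codes do not stand for a shared splice junction. Between single annotated transcripts of 1 gene, opposite 2-fold differences stood in 13.7% of 227 genes with 2 or more. That measure is per transcript and not per sum, so the 10.8% is not shown to exceed what forms of 1 gene give. The assembled form was the higher one in the CIA library in 5 genes, which were 2010007H06Rik, Gm20732, Gm35035, Arhgap27os3 and Gm39469, and the lower one in 3, Gm13563, Gm33280 and 4933412E12Rik. Arhgap27os3, antisense by type, stood at 6.73 against 2.81 FPKM assembled and 1.47 against 3.30 FPKM annotated. All 8 gene sums lay within 2-fold.

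A total of 78 genes had 2 or more isoforms of this class past 0.5 FPKM, 184 isoforms together. In 36 genes all isoforms lay within 2-fold. In 12 genes (15.4%) at least 1 isoform was 2-fold higher and at least 1 was 2-fold lower, which is near the background of 12.5% of 2314 genes with 2 or more other assembled transcripts and 13.7% of 227 genes with 2 or more annotated transcripts. The count is thus no result about these isoforms, and the genes are described as examples. In 9 of the 12 the sum over the isoforms was within 2-fold. All isoforms were 2-fold lower in 1 gene, the pseudogene Gm28802.

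**Figure D4:**
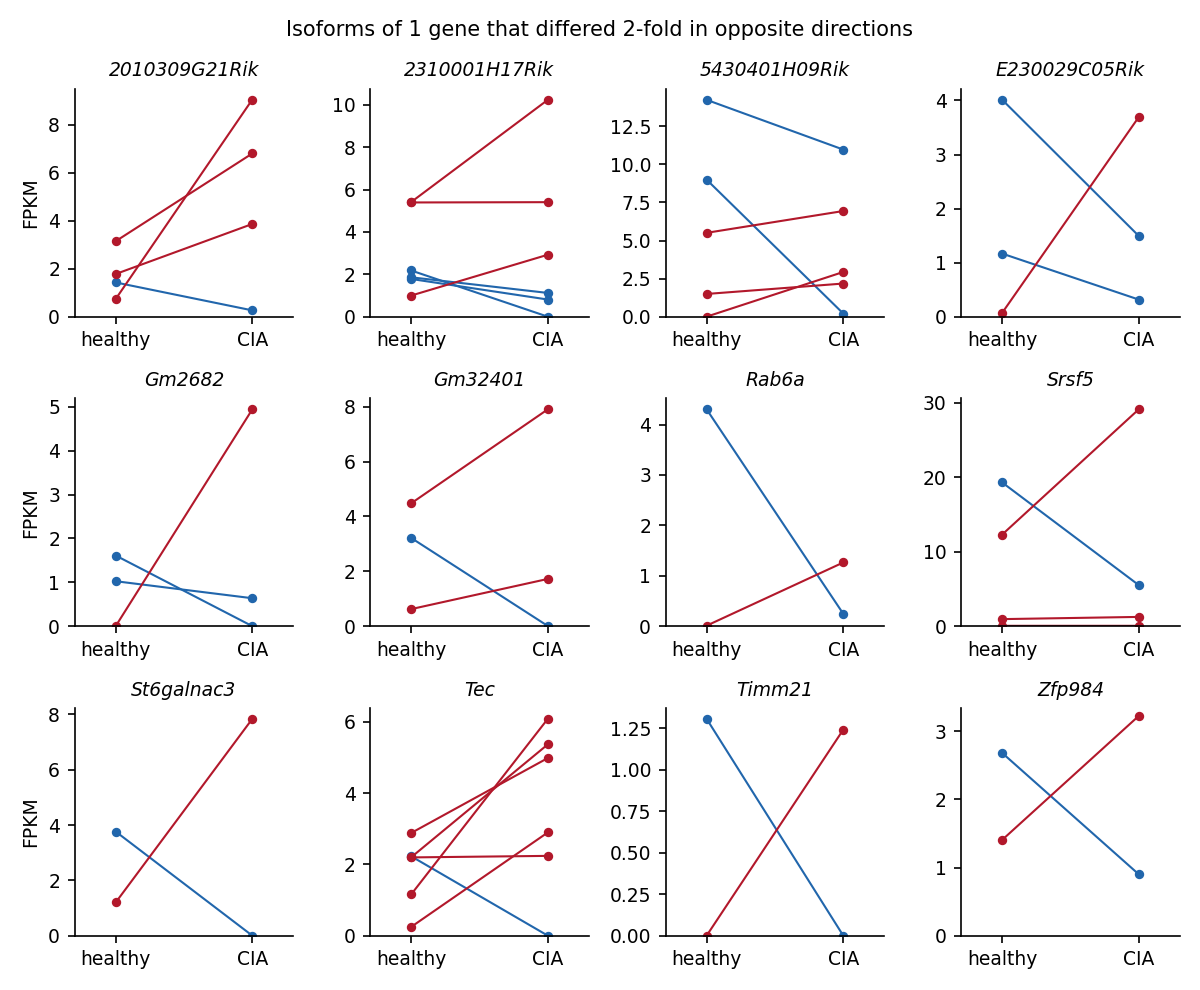
Each panel is 1 of the genes with isoforms beyond 2-fold in opposite directions, each line 1 assembled isoform (red where higher in CIA, blue where lower), with its FPKM (linear axis from 0) in both libraries. In Srsf5 the isoform at 12.3 FPKM in healthy is at 29.1 FPKM in CIA, while the one at 19.3 FPKM is at 5.51 FPKM.

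Srsf5 encodes an SR protein that helps to choose splice sites. Its isoform of 6 exons and 2775 bases was at 29.1 FPKM in CIA and 12.3 FPKM in healthy (1.24). The isoform of 8 exons and 2528 bases, between the same ends (chr12:80945585-80950497, plus strand), was at 5.51 against 19.3 FPKM (-1.79). Another form of 8 exons was at 1.24 against 0.945 FPKM (0.36), and the sum of the forms was level at 35.8 against 32.5 FPKM (0.14). The form with fewer exons and more sequence was thus the main one in the CIA library, and the form with 8 exons in the healthy library.

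Tec, a kinase gene of lymphocyte receptor signalling, had 6 isoforms. The isoforms of 4 and 3 exons between the same ends (chr5:72820358-72868443, minus strand) stood at 6.08 against 1.16 FPKM (2.30) and 0.000613 against 2.23 FPKM (-4.53). Of the other 4, the isoform of 5933 bases was at 2.90 against 0.246 FPKM (3.12) and that of 8962 bases at 5.37 against 2.20 FPKM (1.25), while 2 were within 2-fold. The sum was 21.6 against 10.9 FPKM (0.98), just under 2-fold.

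In 5430401H09Rik the 5 isoforms held levels from 0.204 to 11.0 FPKM in CIA and summed to 23.2 against 30.2 FPKM (-0.38). Its isoform of 1359 bases was at 0.204 against 8.996 FPKM and that of 2036 bases at 2.93 against 0 FPKM, whereas the most abundant one was at 11.0 against 14.2 FPKM (-0.37). St6galnac3 had 2 isoforms with the same ends, at 0 against 3.77 FPKM with 2 exons and 7.84 against 1.20 FPKM with 3 exons (2.61). Rab6a, a gene of Golgi transport, had isoforms at 0.245 against 4.30 FPKM (-3.67) and 1.26 against 0.00997 FPKM (3.63). Timm21, of the mitochondrial import machinery, had isoforms at 0 against 1.31 FPKM and 1.24 against 0 FPKM, a level sum. In 2010309G21Rik, by contrast, 3 of 4 isoforms were 2-fold higher, among them 9.05 against 0.734 FPKM (3.46), and the sum was 19.99 against 7.08 FPKM (1.48).

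Several gene lists were compared by their counts alone. Of 71 genes of RNA processing and splicing, 4 had isoforms of this class, 8 in number, and 7 isoforms were past 0.5 FPKM. The 2-fold rule called 2 higher and 2 lower, and 0 higher and 3 lower after centring, with a median log2 ratio of -0.35 against 0.21 for all 653. The list did not hold other splicing genes with isoforms of this class, such as Phf5a, Prpf18 and Hnrnph3, so its median depends on the genes chosen. Tra2a, a splicing activator that acts with SR proteins, had an isoform of 7 exons (chr6:49243928-49264030, minus strand) at 2.63 FPKM in CIA and 22.3 FPKM in healthy (-3.04). Srsf2, an SR protein gene, had an isoform of 3 exons at 5.45 against 2.52 FPKM (1.08) and one of 2 exons, with the junction shown above, at 2.80 against 5.35 FPKM (-0.91), between the same ends. Ccnl1, a cyclin gene tied to splicing, was at 12.7 against 16.3 FPKM (-0.35).

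Cell cycle genes gave 5 isoforms of 3 genes, 2 higher and 2 lower by 2-fold, with a median of -0.44. Tpx2, a spindle assembly gene, had 3 isoforms, at 0.768 against 4.80 FPKM (-2.50), 1.18 against 3.44 FPKM (-1.46) and 1.82 against 2.50 FPKM (-0.44). Birc5, which encodes survivin, was at 5.34 against 1.53 FPKM (1.74), and Hmmr, a gene of spindle positioning, at 1.70 against 0.508 FPKM (1.57). The isoforms of this list therefore did not lie on 1 side.

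Host genes of snoRNAs and growth-related lncRNAs had 10 isoforms past the limit, of which 9 lay within 2-fold and 1, Zfas1, was lower. The median was -0.09, or -0.39 after centring. Gas5, a host of many snoRNAs whose RNA accumulates when growth stops, had an isoform at 11.5 against 8.31 FPKM (0.46), and its annotated transcripts summed to 22.8 against 33.0 FPKM, so that the assembled share was 33.4% against 20.5%. Epb41l4aos was level in its assembled form at 4.24 against 4.64 FPKM (-0.13) and at 2.14 against 5.28 FPKM in its annotated form. Dleu2 (1.96 against 3.14 FPKM) and Cct6a (5.15 against 7.62 FPKM) had shares under 10% in both libraries, at 5.54% and 6.68% for Dleu2 and 8.63% and 9.20% for Cct6a. Pvt1, a neighbour of Myc, had shares of 52.8% and 54.7%. Ribosomal protein and translation genes had 6 isoforms, all within 2-fold before centring and 1 lower after it, with a median of -0.18. That list did not hold Rpl41 or Rps27a.

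Immune lists had few isoforms. On the T cell list, Skap1 was the only one beyond 2-fold of 3. Il7r, the interleukin 7 receptor gene, was at 5.72 against 3.75 FPKM (0.60) and Cd247, the zeta chain of the T cell receptor complex, at 1.67 against 2.08 FPKM (-0.30). The B cell list had 2 isoforms, both 2-fold higher: 2010007H06Rik and 4930597A21Rik, at 3.19 against 1.17 FPKM (1.37). These are lncRNA genes and were put on the list for the B cell genes next to them. The immunoglobulin V isoforms described above were not on it. The interferon and antigen presentation list had 2, both 2-fold lower: H2-K1 and Ifi27l2a, an interferon-induced gene, at 1.25 against 5.08 FPKM (-1.93). Both lists kept those counts after centring. The lists of myeloid and granule genes and of P2X7R-NLRP3 inflammasome genes had no isoform of this class. The lists did not hold every immune gene with such an isoform, so their counts depend on the genes chosen. Outside them stood Rnase6, the T cell receptor V gene Trav16 (2.36 against 1.13 FPKM, 1.01) and Ms4a4c (11.4 against 7.97 FPKM, 0.51). The list of microRNA hosts had Dleu2, Ftx (3.60 against 2.94 FPKM) and Mirt1 (1.91 against 1.04 FPKM), all within 2-fold. Whether Mirt1 hosts a microRNA was not checked. Their log2 ratios were -0.66, 0.28 and 0.82, so the list median of 0.28 (-0.01 after centring) is that of Ftx and depends on Mirt1. The imprinted antisense gene Nespas (1.25 against 1.501 FPKM) was within 2-fold too.

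**Figure D5:**
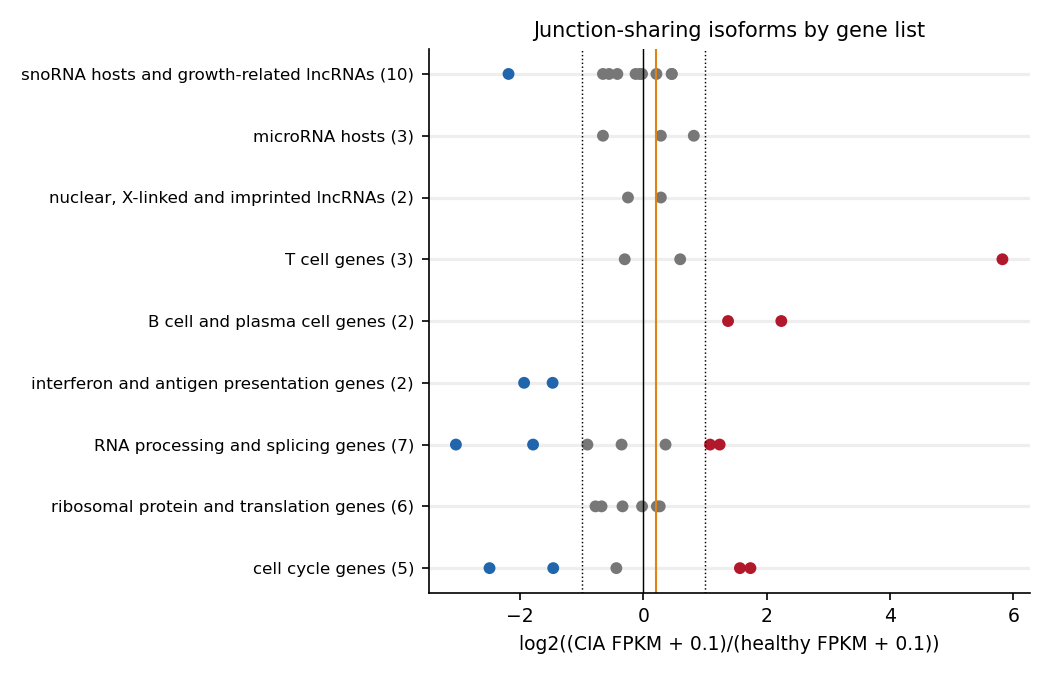
Each point is 1 junction-sharing isoform past 0.5 FPKM of a listed gene, placed by its log2 ratio of CIA over healthy FPKM, with the number of isoforms in brackets, the line at 0 meaning equal levels, dotted lines 2-fold and the orange line the median of all 653 isoforms. Both isoforms of interferon and antigen presentation genes lie below -1 and both of the B cell list above 1, whereas RNA processing and cell cycle genes reach both sides.

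The authors' deposited table gave 69 of the 667 isoforms a p below 0.05, of which 44 were higher and 25 lower in the CIA library. The background over all 16840 assembled transcripts in the authors' deposited table was 1.85%, and the share among these isoforms was 10.3%. It was not taken over the other assembled transcripts with 2 or more exons alone, so the gap is not shown to be particular to these isoforms. A q below 0.05 stood in the authors' deposited table for 30 isoforms, 20 higher and 10 lower. The lowest p in the authors' deposited table belonged to Rpl41 (1.40e-11), followed by Megf11 (6.33e-10), Gm31452 (1.37e-08) and the lower Rab6a isoform (1.61e-08). Also among the 10 lowest in the authors' deposited table were Tra2a (6.28e-06), the Tec isoform of 5933 bases (2.70e-06) and Vgll4, a gene of a TEAD factor antagonist (9.35e-06). Vgll4 was at 5.25 against 0.526 FPKM (3.09). The p in the authors' deposited table was 2.24e-06 for Phf5a, a gene of the splicing factor SF3b, at 0.525 against 5.16 FPKM (-3.07), and 2.40e-06 for Atox1, a copper chaperone gene, at 6.68 against 0.554 FPKM (3.37). No spread between mice enters these p-values.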

How the data were processed

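The authors deposited FPKM values per transcript in 2 tables, per the file headers, 1 of annotated and 1 of assembled transcripts, with 0.0001 in place of 0. StringTie, which assembles transcripts from aligned reads, is named in the submitters' processing notes. Aligner, strandedness and test: not given in the sources used here. Total RNA was extracted with TRIzol and depleted of ribosomal RNA, per the labels' protocols. The ratio (fold) and log2 columns deposited by the authors equalled the CIA over the healthy FPKM (relative tolerance 0.0001), and their deposited p-value and q-value columns are only quoted. In 2 damaged cells of the annotated table the value was identified from the deposited ratio. GRCm38 is given as the build because GENCODE M21 has the same coordinates for all 15172 annotated transcripts.

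A limit of 0.5 FPKM in either library was set, a pseudocount of 0.1 FPKM was added, which understates the ratios of low transcripts, and a 2-fold rule took the place of a test. Shares used genes of at least 1 FPKM in both libraries and a limit of 20 points. FPKM keeps no counts, so depth is unknown and no interval is given. The introns of 2-exon isoforms were matched to GENCODE M21 by length within the span, and junctions were read from its transcript sequences. The counting was tested on simulated data. The result of 1 gene named by the rule is not reported here. Members and gene lists were chosen with earlier results of these data known.

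Named by rule were the 10 highest and 10 lowest ratios of at least 1 FPKM and not at the floor value in either library. Rnase6 was kept among the highest, although its healthy value lay below the floor value. Also named were the 5 most abundant isoforms at the floor in 1 library each way, and the 10 most abundant. The rule also took the 5 largest share differences each way, the genes with forms 2-fold apart in opposite directions, and up to 4 genes per list. Others, such as Gm31452, Rab6a, Phf5a, Atox1, Vgll4, Cxcl12, Gm45552, Gm26740, Gm30211, Redrum and the further isoforms of named genes, were chosen after their values were seen. Alternatives were other pseudocounts, filters, fold and share limits, centring and gene sums. Python 3.11.15, numpy 2.4.6, pandas 2.3.3 and matplotlib 3.10.9 were used.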

Additional observations from a re-analysis of the deposited data

How the results depend on the processing

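No paired analysis was possible because there was a single library on either side, and no library could be left out. With a pseudocount of 1 FPKM, 78 isoforms were 2-fold higher and 5 genes had forms 2-fold apart in opposite directions. Under a 4-fold rule 60 isoforms were higher and 55 lower. Centring on the annotated median turned the median log2 ratio to -0.087. Requiring a gene sum of 5 FPKM, which left 43 genes, gave 3 with a higher and 3 with a lower assembled share. With 40 points as the limit there were 6 and 4, and with 10 points 18 had a lower share. The remaining counts stayed within 1.5 times under the alternatives run. Summing all forms of the gene, annotated ones included, turned the direction of 8 of the 70 named isoforms. For the 7 of them beyond 2-fold the log2 ratio became 0.21 for Gm32401, 0.98 for Tec, 0.65 for St6galnac3, 0.056 for 5031425E22Rik, -0.054 for Gm39469, 0.50 for Gm33280 and 0.14 for Srsf5. Gm11944, within 2-fold in both, went from -0.49 to 0.71. The sum took 14 others to within 2-fold and 1, Gm27252, past 2-fold, from 0.26 to 1.01. The other 48, Gm11944 among them, kept their side of the 2-fold limit. Other isoforms enter this sum by construction. All 70 kept their side with a pseudocount of 0.01 FPKM, 65 with 1 FPKM and 64 after centring, which also turned Gm27252, Ftx and Rpl37, all within 2-fold, from above to just below 0. What depth limits could not be measured, as FPKM keeps no counts.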

Other observations

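In the authors' deposited table, all 50 isoforms listed at the floor in 1 library had a p of 1, and none was marked as significant. Sdhc, at 37.7 FPKM in the healthy library, and Igkv14-126, at 11.1 FPKM in the CIA library, were among them. A p of 1 also stood beside Morf4l1 in the authors' deposited table, at 4.06 against 0.0109 FPKM. Over all isoforms beyond 2-fold, 105 of 211 had a p of 1 there. The authors' deposited table marked 113 isoforms as significant, with p-values of up to 0.194.

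Isoforms of 2 exons whose intron matched an annotated intron were beyond 2-fold in 21.3% of 94 cases, with 13 higher and 7 lower in the CIA library. Those whose intron matched none were beyond 2-fold in 36.5% of 126, with 32 higher and 14 lower. The median log2 ratios were 0.27 and 0.29, and the difference in spread was not tested. Their median levels were 2.87 and 2.39 FPKM as the mean of both libraries, and the part of abundance in the spread was not tested.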
